A study of Mus musculus with 4 samples.

Results

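The cadherin and protocadherin genes of the mouse pituitary gland were followed across cell classes in single-nucleus RNA sequencing data. They were taken as every row of the count matrices whose gene symbol is Cdh followed by digits or begins with Pcdh, without antisense symbols ending in os, and with at least 50 unique molecular identifiers (UMIs, counts of single transcripts) summed over the 4 libraries. Of 32285 genes in the files, 92 had such a symbol and 88 reached 50 UMIs: 20 Cdh and 68 Pcdh genes. Just below the minimum lay Pcdhac1 with 44 UMIs and Cdh15 with 37, and just above it Pcdha3 with 52 and Pcdha6 with 74. The 88 members comprise 4 type I and 13 type II classical cadherins, 3 other cadherins, 9 delta protocadherins, 3 other unclustered protocadherins and 56 clustered protocadherins. Pcdha11 stands on 2 rows with different gene identifiers, and these were kept apart.

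The study compared pituitary glands of wild-type UM-HET3 mice, a genetically heterogeneous stock, at 22 and 5 months of age and in both sexes. Each of the 4 groups (males and females at 22 months, males and females at 5 months) is 1 library, all untreated as far as the labels say. Every library pooled nuclei from 3 snap-frozen glands, so no group has a replicate. A p-value between ages or sexes therefore measures neither the spread between like pools nor that between mice. Its spread is how far the libraries depart from added effects of labelled age and labelled sex, shared in part or wholly across genes.

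Cadherins are calcium-dependent adhesion proteins that mostly bind the same cadherin on a neighbouring cell, and the classical ones are tied to actin inside the cell through catenins. Delta protocadherins are single genes known mainly from the nervous system. The clustered protocadherins form an alpha, a beta and a gamma array, from which single neurons draw different combinations. Alpha and gamma genes are alternative first exons joined to last exons shared within the array, while beta genes are separate genes of 1 exon. In the pituitary, E-cadherin (Cdh1) is known from the epithelial stem cell layer and N-cadherin (Cdh2) from hormone cells.

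The files hold 33328821 to 65773807 UMIs per library. After filters, 31343 nuclei remained, with medians of 3460 to 4745 UMIs per nucleus by library, and library pairs shared 14 to 43 cell barcodes, at most 0.554% of the smaller library. Nuclei were clustered without using any cadherin or protocadherin gene, and clusters were named from marker transcripts, so names end in -like. There were 11 classes in which no library gave fewer than 30 nuclei, each with all of its markers, or all but 1, over 2-fold above the other classes pooled, and 2564 nuclei in 4 clusters stayed unnamed. The sex labels did not match the sex-linked transcripts. Xist, the RNA of the inactive X chromosome, was at 2461 CPM (UMIs of a gene per 1e+06 UMIs) in the 22-month-labelled male library and 1741 in the 22-month-labelled female library, against 0.298 and 0.891 CPM in the 5-month-labelled male and female libraries. Summed CPM of the Y-linked Uty, Eif2s3y, Ddx3y and Kdm5d were 0.474 and 0.614 in the 22-month-labelled male and female libraries, against 650 and 646 in the 5-month-labelled male and female libraries. The 2 libraries labelled 22-month thus both carried Xist and the 2 labelled 5-month both carried Y-linked RNA. Labelled age and the sex read from RNA cannot be told apart here, every group name below is that of the label alone, and if the labels of the 22-month male and 5-month female libraries had been exchanged, labelled age would be sex and labelled sex would be age.

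A level is given below as the CPM of 1 gene among all UMIs of a class in 1 library, and levels are compared between classes and libraries, never between genes, because longer genes hold more countable RNA. The heat map of all classes shows these levels.

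**Figure D1:**
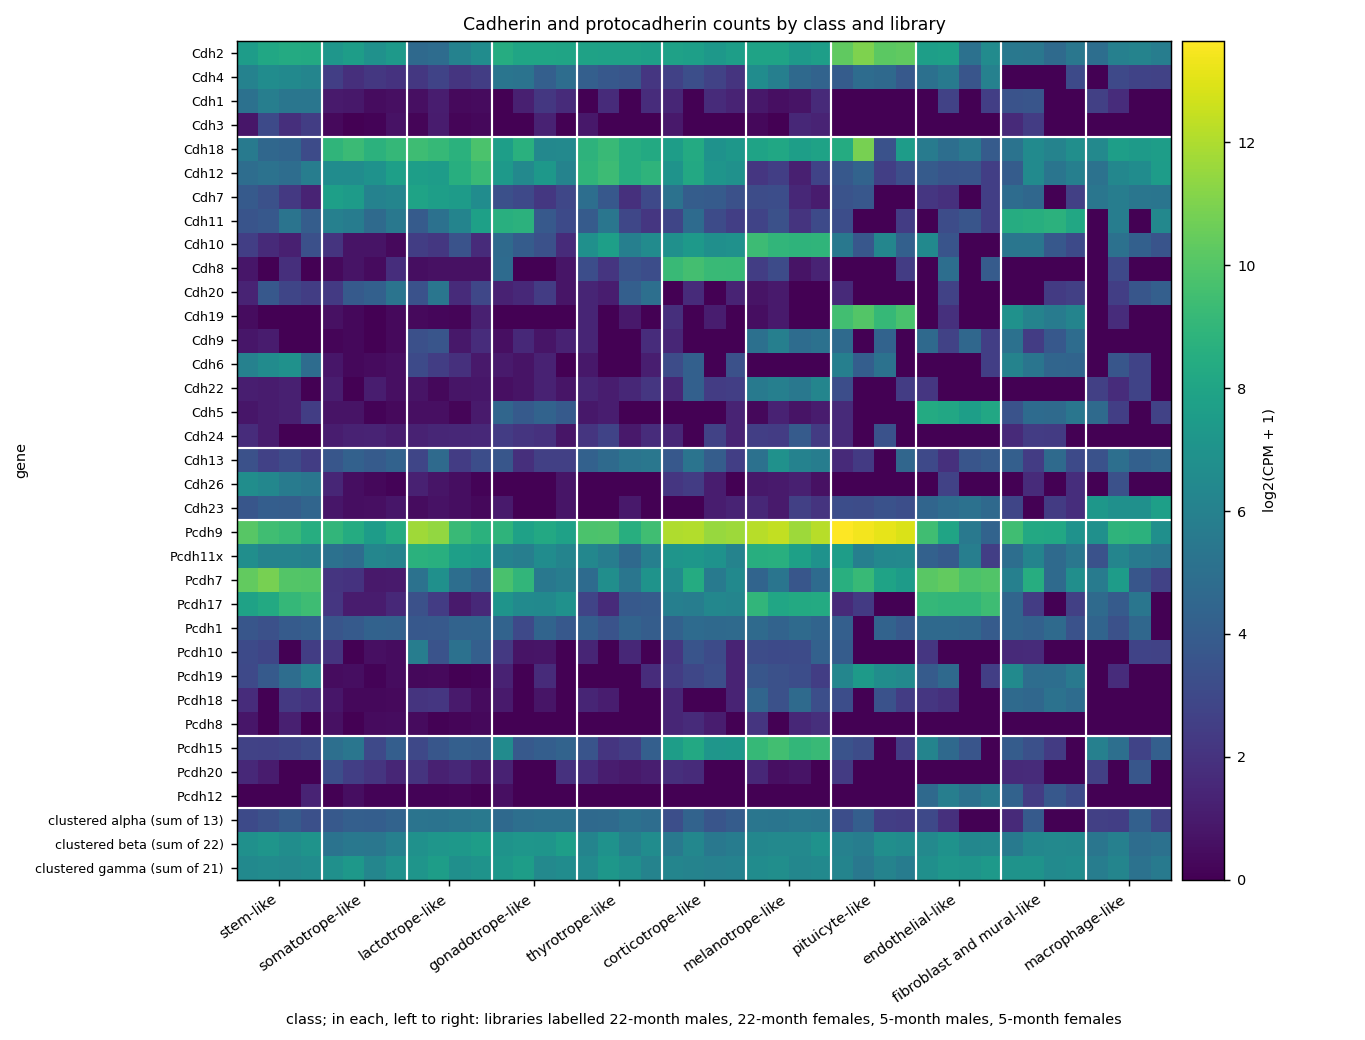
Level of each unclustered member and of the summed alpha, beta and gamma clustered protocadherins, as log2(CPM + 1), in 11 classes with 4 libraries each; white lines separate classes and families. Blocks of 4 alike columns are seen for members that lead in 1 class, such as Cdh8 in corticotrope-like and Cdh5 in endothelial-like nuclei.

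Of the 88 members, 13 led in 1 class. That is, the lowest library of the class exceeded every library of the other 10 classes, with at least 20 counts in the class. These 13 are 14.8% of the members, beside 13.4% of the 19714 genes with at least 50 UMIs that led in some class, so the share of leading genes among the members is near that of all genes. Melanotrope-like nuclei, the intermediate-lobe cells that make POMC peptides, held 4 of them (Pcdh15, Cdh10, Cdh22 and Pcdha4), and pituicyte-like nuclei, the glia of the posterior lobe, held 3 (Pcdh9, Cdh2 and Cdh19). Stem-like nuclei led for Cdh1 and Cdh26, endothelial-like for Cdh5 and Pcdh12, corticotrope-like for Cdh8 and macrophage-like for Cdh23. No member led in somatotrope-, lactotrope-, gonadotrope-, thyrotrope- or fibroblast and mural-like nuclei. The classes were formed without these genes, and no test was made of 1 class against others.

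Both POMC-producing classes were marked by separate members. Cdh8, a type II classical cadherin known from brain circuits, was at 620 and 766 CPM in corticotrope-like nuclei of the 22-month-labelled male and female libraries, and at 618 and 586 CPM in the 5-month-labelled male and female libraries. Every other class stayed at or below 29.9 CPM, a value of endothelial-like nuclei, and all other classes pooled were at 1.72 CPM. Pcdh15, the protocadherin of the hair-cell tip link, averaged 611 ± 94.6 CPM in melanotrope-like nuclei (SD, n = 4 libraries) and 196 ± 71.0 CPM in corticotrope-like nuclei, the next class. Cdh10, another type II cadherin, averaged 534 ± 88.4 CPM in melanotrope-like and 127 ± 22.3 CPM in corticotrope-like nuclei, the next class by mean. Its highest single library outside melanotrope-like nuclei was a thyrotrope-like one, at 205 CPM. Cdh22, first described as pituitary and brain cadherin, averaged 55.9 ± 12.7 CPM in melanotrope-like and 7.06 ± 6.93 CPM in corticotrope-like nuclei. The melanotrope-like class therefore stood 3.11-fold, 4.22-fold and 7.93-fold above corticotrope-like nuclei for Pcdh15, Cdh10 and Cdh22 as ratios of means. Pcdha4 led by 1.79-fold over gonadotrope-like nuclei, from 108 counts in all, and its counts are uncertain because alpha genes overlap each other. Of the melanotrope-like nuclei, 288 formed a cluster led by immediate-early genes, and 279 of these came from the 5-month-labelled male library.

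The 250 bases before the RefSeq transcription start of the POMC-class leaders Pcdh15, Cdh10 and Cdh8, and of the stem-class leader Cdh26 for contrast, are shown as the proximal regulatory sequence of genes that led in 1 class (GRCm38.p6, the series' mm10 build, 5′ to 3′ on the gene's strand). Capitals mark matches to the E-box CANNTG on either strand, a site of basic helix-loop-helix factors. The windows lie at chr10:73821617-73821866 (plus strand, Pcdh15), chr15:18820079-18820328 (plus, Cdh10), chr8:99416472-99416721 (minus, Cdh8) and chr2:178430265-178430514 (plus, Cdh26). In GENCODE M21 the Pcdh15 and Cdh10 windows are intronic to a longer span of the same gene, the Cdh8 window lies within the same-strand span of Gm15680 and overlaps an exon of the opposite-strand A330008L17Rik, and the Cdh26 window holds no exon.
Pcdh15: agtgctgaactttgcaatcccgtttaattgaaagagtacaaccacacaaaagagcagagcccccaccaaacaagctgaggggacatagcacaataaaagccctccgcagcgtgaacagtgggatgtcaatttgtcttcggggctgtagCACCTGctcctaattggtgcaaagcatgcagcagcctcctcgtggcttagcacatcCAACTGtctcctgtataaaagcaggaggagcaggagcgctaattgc
Cdh10: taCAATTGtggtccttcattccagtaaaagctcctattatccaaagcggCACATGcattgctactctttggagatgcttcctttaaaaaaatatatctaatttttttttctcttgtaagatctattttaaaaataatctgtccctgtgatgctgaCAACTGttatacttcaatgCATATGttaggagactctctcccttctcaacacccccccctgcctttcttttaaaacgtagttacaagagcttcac
Cdh8: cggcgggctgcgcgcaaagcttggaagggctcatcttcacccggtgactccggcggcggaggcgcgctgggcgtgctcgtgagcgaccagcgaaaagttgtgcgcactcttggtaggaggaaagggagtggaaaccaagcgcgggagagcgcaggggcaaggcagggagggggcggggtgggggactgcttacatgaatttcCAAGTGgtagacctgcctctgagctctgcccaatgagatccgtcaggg
Cdh26: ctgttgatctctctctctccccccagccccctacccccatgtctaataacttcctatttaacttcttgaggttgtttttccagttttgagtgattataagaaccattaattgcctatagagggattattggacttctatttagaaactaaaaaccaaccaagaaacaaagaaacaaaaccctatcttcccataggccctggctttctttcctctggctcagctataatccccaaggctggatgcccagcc
The windows held 2 (Pcdh15), 4 (Cdh10), 1 (Cdh8) and 0 (Cdh26) E-box matches, and 66.2% of 32851 mouse promoter windows of the same length held at least 1. TCACACCT, a site of T-box factors such as TBX19, which is known from both POMC-making cell types, was in none of the 4 windows and in 1.12% of all windows. Among 21 members with a window in the table, 11 held an E-box and 0 held TCACACCT.

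Pituicyte-like nuclei held the highest Pcdh9, a delta protocadherin, at 12905 and 11123 CPM in the 22-month-labelled male and female libraries and 9026 and 7517 CPM in the 5-month-labelled male and female libraries. Next came melanotrope-like nuclei with 4491 ± 939 CPM (SD, n = 4), whose highest library at 5436 CPM stayed below the lowest pituicyte-like one. Cdh2, N-cadherin, averaged 1449 ± 405 CPM in pituicyte-like nuclei and 279 ± 43.7 CPM in gonadotrope-like nuclei, the next class. Cdh19, a type II cadherin known from peripheral glia, averaged 801 ± 202 CPM in pituicyte-like nuclei against 1.38 CPM in all other classes pooled. Its next class was fibroblast and mural-like at 77.6 ± 30.1 CPM.

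In stem-like nuclei, Cdh1 was at 33.7 and 56.2 CPM in the 22-month-labelled male and female libraries and 39.4 and 39.5 CPM in the 5-month-labelled male and female libraries. All other classes stayed at or below 11.1 CPM. Cdh26, an epithelial cadherin, averaged 67.9 ± 28.9 CPM there and 0.763 CPM in all other classes pooled. P-cadherin (Cdh3) was low even in stem-like nuclei, with 2 and 7 counts in the 22-month-labelled male and female libraries and 2 and 3 counts in the 5-month-labelled male and female libraries. Endothelial-like nuclei led for VE-cadherin (Cdh5), the cadherin of endothelial junctions, with 276 ± 53.6 CPM against 25.6 ± 12.1 CPM in fibroblast and mural-like nuclei. Pcdh12, also known from endothelium, averaged 40.8 ± 14.4 CPM there from 41 counts. Cdh23, the partner of Pcdh15 in the hair-cell tip link, averaged 147 ± 43.0 CPM in macrophage-like nuclei and 26.5 ± 5.22 CPM in endothelial-like nuclei. These endothelial, pituicyte and macrophage levels rest on 240 to 413 nuclei a class, and on 12606 counts in all for Pcdh9 in pituicyte-like nuclei but 41 for Pcdh12 and 137 for Cdh23 in their leading classes.

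**Figure D2:**
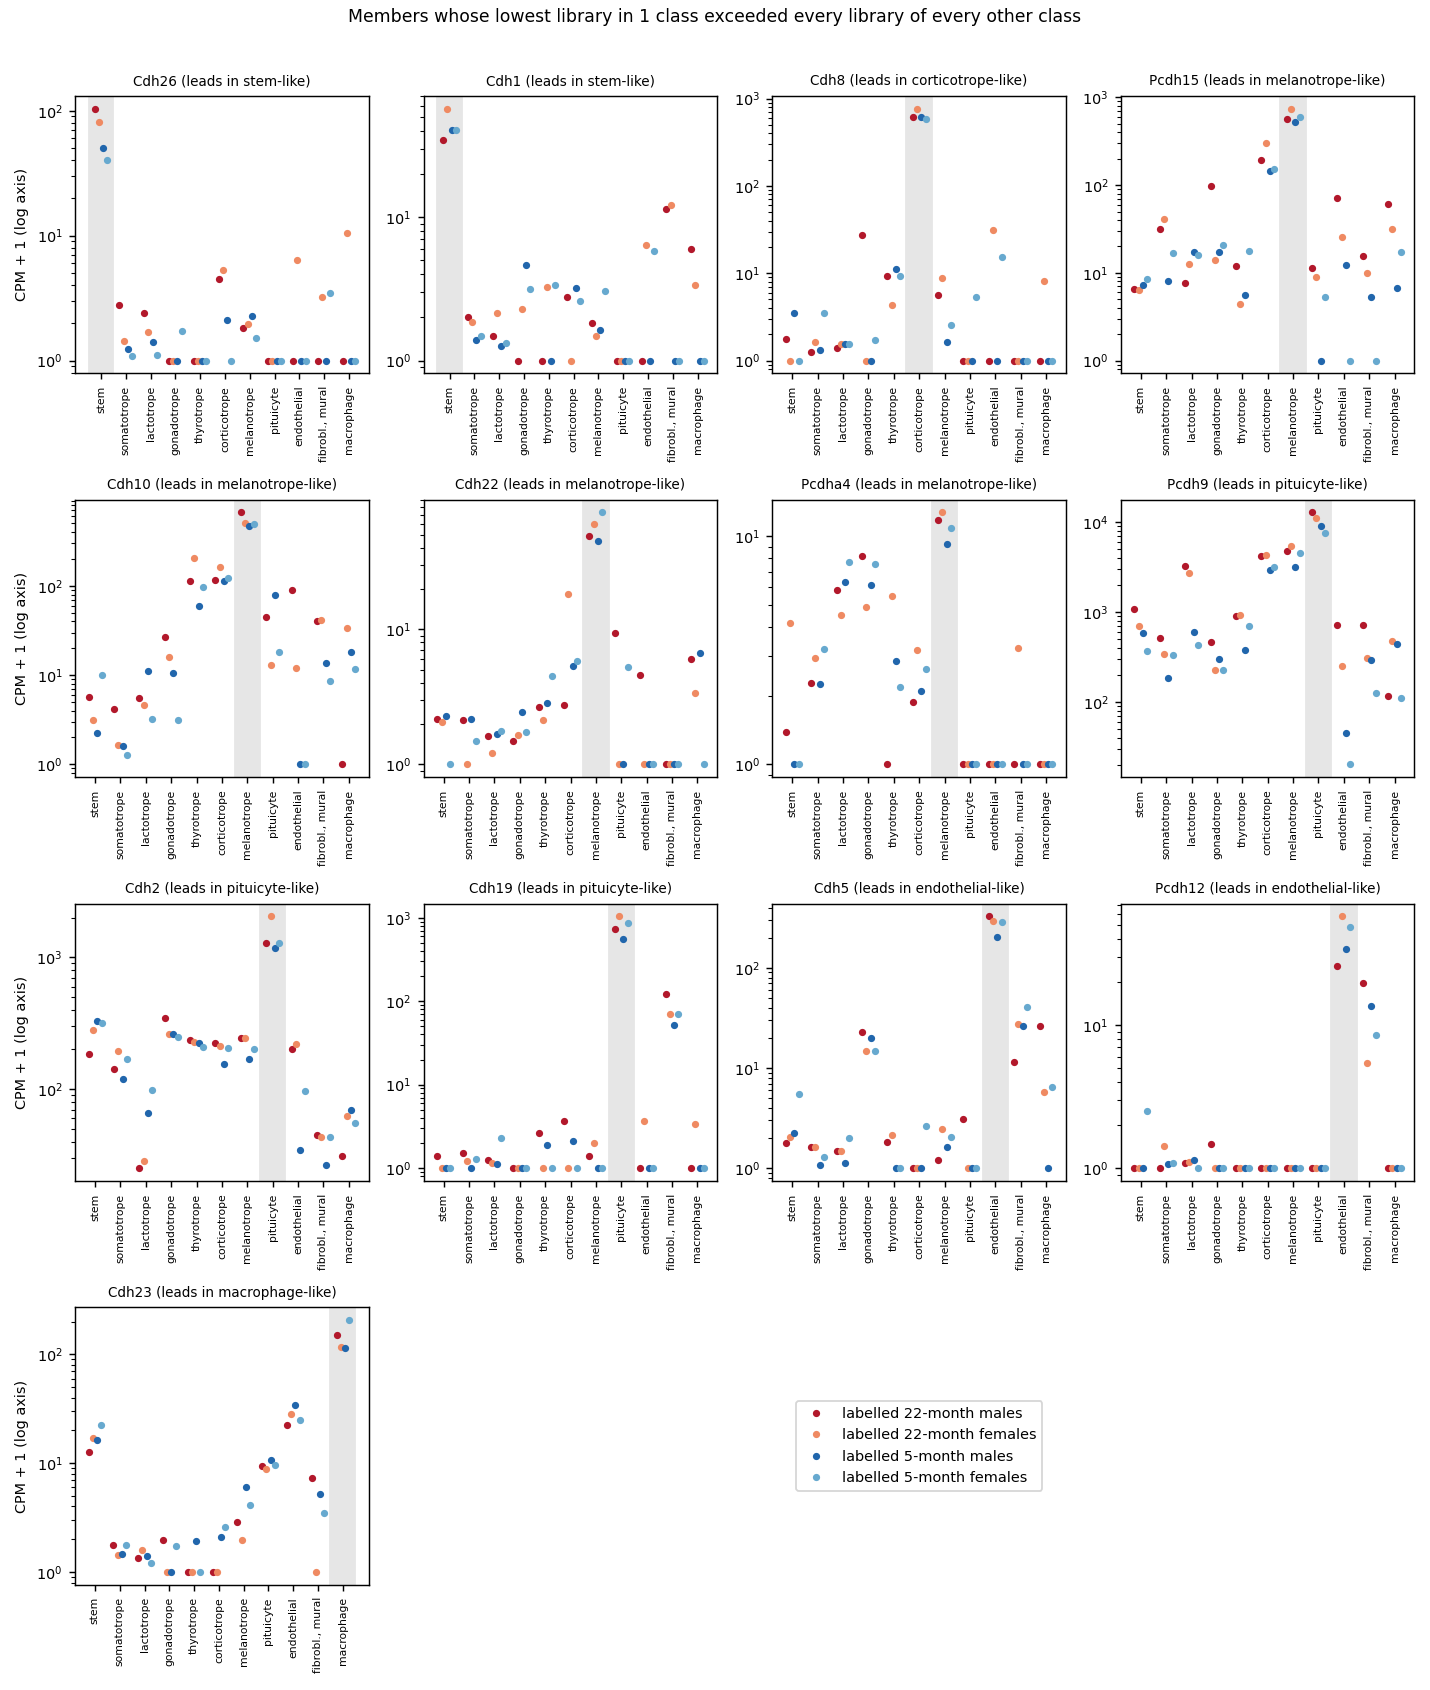
CPM + 1 (log axis) of the 13 leading members in 11 classes, 1 point per library, with the leading class shaded. In each panel the 4 points of the shaded class lie above all others, by 1.79-fold (Pcdha4) to 58.5-fold (Cdh8) as the ratio of mean levels to the next class.

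Other members were shared by several classes. Pcdh7, a delta protocadherin, averaged 1289 ± 399 CPM in stem-like and 1078 ± 195 CPM in endothelial-like nuclei (SD, n = 4 libraries), which overlapped, and 2.04 ± 1.28 CPM in somatotrope-like nuclei. Pcdh17, also of the delta group, averaged 560 ± 79.6 CPM in endothelial-like, 446 ± 211 CPM in stem-like and 354 ± 103 CPM in melanotrope-like nuclei, again overlapping in that order, and gonadotrope-like nuclei at 108 ± 22.2 CPM lay below all of these. Cdh12, a type II cadherin, averaged 492 ± 116 CPM in thyrotrope-like and 343 ± 200 CPM in lactotrope-like nuclei but 3.85 ± 1.93 CPM in melanotrope-like nuclei. Cdh18, of the same subfamily, was spread over lactotrope-, somatotrope- and thyrotrope-like nuclei at 632 ± 189, 525 ± 82.1 and 441 ± 133 CPM, with overlapping libraries. In pituicyte-like nuclei Cdh18 ran from 9.68 CPM in the 5-month-labelled male library to 1818 CPM in the 22-month-labelled female library. Cdh7 averaged 179 ± 59.7 CPM in lactotrope-like and 132 ± 71.8 CPM in somatotrope-like nuclei, which overlapped, while macrophage-like nuclei at 43.1 ± 7.58 CPM lay below both. OB-cadherin (Cdh11), known from mesenchyme, was highest on average in fibroblast and mural-like nuclei at 365 ± 58.7 CPM, but gonadotrope-like nuclei at 211 ± 232 CPM overlapped them, its libraries being split by labelled age. R-cadherin (Cdh4) averaged 81.2 ± 14.0 CPM in stem-like and 49.9 ± 36.6 CPM in melanotrope-like nuclei, which overlapped.

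Labelled age was tested in 6 classes with edgeR's quasi-likelihood test on summed counts, with labelled sex as a term and p-values adjusted over all genes by the Benjamini-Hochberg method. A member passed at an adjusted p under 0.05, and folds are log2, 22-month-labelled over 5-month-labelled, with an approximate standard error. In lactotrope-like nuclei 17 members rose and 4 fell of 75 tested, 28.0% against a background of 24.7% of all genes (12.8% higher and 12.0% lower). In stem-like nuclei 4 rose and 3 fell of 19 (all genes: 6.10%, with 3.19% higher and 2.91% lower). In somatotrope-like nuclei 3 rose and 2 fell of 58 (all genes: 3.01%, with 2.21% higher and 0.797% lower). In gonadotrope-like nuclei 6 rose and 0 fell of 32 (all genes: 7.89%, with 5.20% higher and 2.69% lower). In melanotrope-like nuclei 2 rose and 0 fell of 37 (all genes: 1.39%, with 0.902% higher and 0.487% lower), and in corticotrope-like nuclei 3 rose and 0 fell of 14 (all genes: 2.60%, with 1.74% higher and 0.859% lower). Median member folds beside those of all genes tested were 0.17 and -0.02 in lactotrope-like, -0.05 and -0.01 in stem-like, 0.22 and -0.03 in somatotrope-like, 0.38 and -0.02 in gonadotrope-like, 0.28 and -0.02 in melanotrope-like and 0.53 and -0.01 in corticotrope-like nuclei. The calls came to 44 over 27 distinct members. With any 1 library left out, 5 of the 44 calls passed in all 4 refits: Pcdh9 and Cdh2 in lactotrope-like, Pcdh7 and Cdh11 in gonadotrope-like and Cdh7 in somatotrope-like nuclei. These refits had labelled age as the only term and left a lone library at 1 labelled age, so labelled sex was not separated from it. A call kept or lost in them, here and below, therefore does not settle whether it holds. DESeq2 with the same terms called 24 of the 44. Counts of this kind for all genes are not given. Members tested are those with enough counts in some libraries, so these shares are a description of the tested members and not of all 88.

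**Figure D3:**
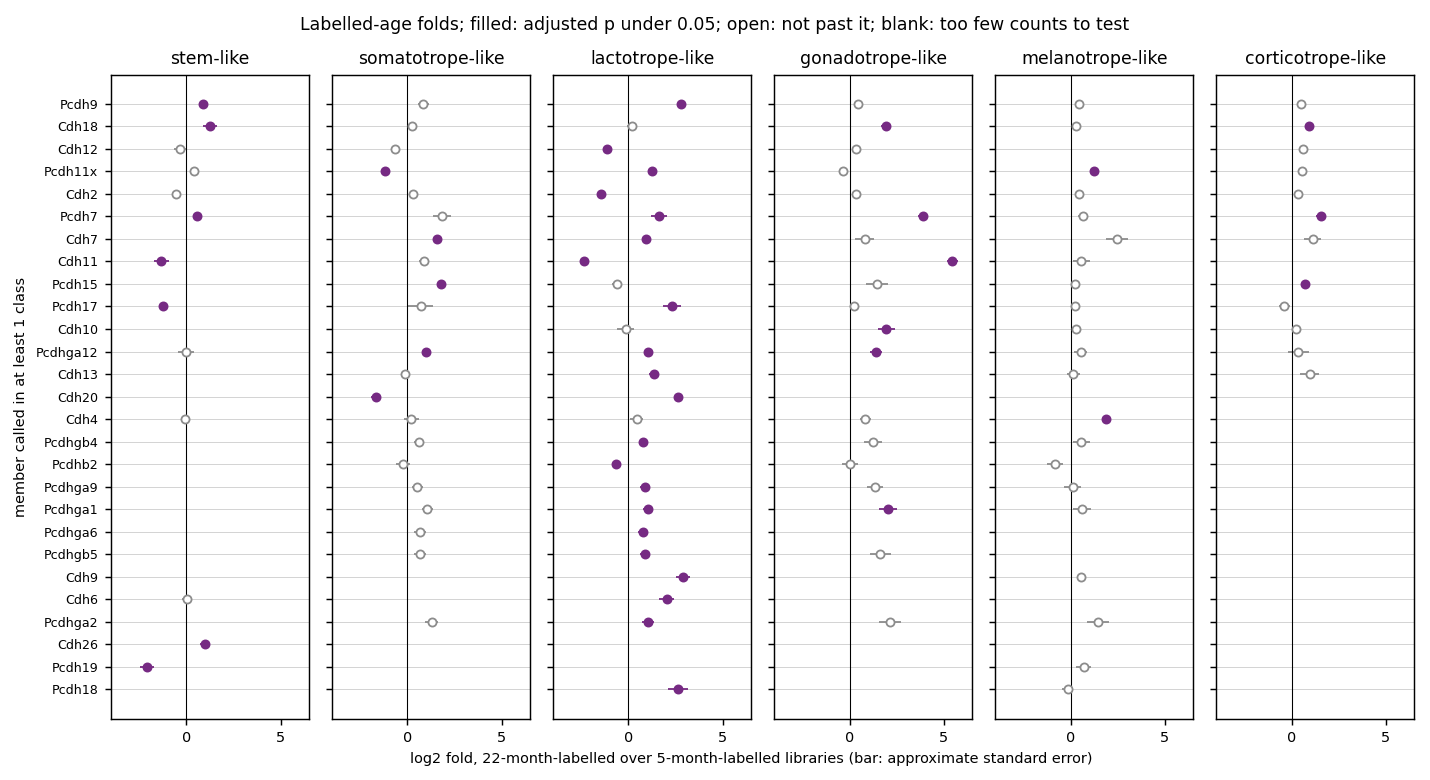
Log2 fold (22-month-labelled over 5-month-labelled libraries, bars approximate standard errors) of the 27 members called in at least 1 of 6 classes; filled points passed an adjusted p of 0.05, open points did not, and blanks had too few counts. Cdh11 lies at 5.44 in gonadotrope-like but at -2.34 in lactotrope-like nuclei.

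Lactotropes make prolactin. In lactotrope-like nuclei Pcdh9 was at 3298 and 2740 CPM in the 22-month-labelled male and female libraries, against 605 and 426 CPM in the 5-month-labelled male and female libraries. The groups did not overlap, and Pcdh9 rose by 2.76 ± 0.18 (adjusted p = 3.90e-06, edgeR), with adjusted p of 0.00313 to 0.0188 when each library was left out. N-cadherin (Cdh2) stood at 24.1 and 27.3 CPM in the 22-month-labelled male and female libraries, against 64.9 and 98.3 CPM in the 5-month-labelled male and female libraries. Cdh2 fell by 1.45 ± 0.14 in log2 units (adjusted p = 7.86e-05, edgeR), and leaving out libraries gave adjusted p of 0.00732 to 0.0389. Among the delta protocadherins, 5 of 7 tested rose (Pcdh9, Pcdh11x, Pcdh7, Pcdh17 and Pcdh18) and 0 fell, beside 12.8% of all genes higher and 12.0% lower. Pcdh11x was lost without the 5-month-labelled female library (adjusted p = 0.0538). Pcdh7, Pcdh17 and Pcdh18 passed in 1 of 4 refits each, without the 22-month-labelled male library, the 22-month-labelled female library and the 5-month-labelled male library in that order, and their adjusted p in the other refits was 0.150 to 0.265, 0.0796 to 0.132 and 0.0585 to 0.104.

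Type II cadherins moved both ways in lactotrope-like nuclei, with 4 of 9 tested higher (Cdh7, Cdh20, Cdh9 and Cdh6) and 2 lower (Cdh11 and Cdh12), beside 12.8% of all genes higher and 12.0% lower. Cdh9, a neural type II cadherin, was at 9.02 and 11.1 CPM in the 22-month-labelled male and female libraries, against 0.815 and 2.31 CPM in the 5-month-labelled male and female libraries. It rose by 2.89 ± 0.37 (adjusted p = 0.000397, edgeR), a call lost without the 22-month-labelled female library (adjusted p = 0.0512). Cdh12 was at 198 and 183 CPM in the 22-month-labelled male and female libraries, against 379 and 612 CPM in the 5-month-labelled male and female libraries, and fell by 1.15 ± 0.18 (adjusted p = 0.00160, edgeR). Cdh12 had adjusted p of 0.0609 and 0.122 without the male or the female 22-month-labelled library, and 0.106 without the 5-month-labelled female one. T-cadherin (Cdh13), which lacks a cytoplasmic tail, was at 6.25 and 25.7 CPM against 4.35 and 8.36 CPM in the same order of labels (22-month males and females, then 5-month males and females), so the groups overlapped. Its rise of 1.35 ± 0.29 (adjusted p = 0.00714, edgeR) was lost without the 22-month-labelled female library, at an adjusted p of 0.893. Cdh18, among the 3 members with most counts in this class, did not pass (fold 0.20 ± 0.25, adjusted p = 0.608). Instead of 21 lactotrope-like calls there were 10 and 4 without the male or the female 22-month-labelled library, and 9 and 3 without the male or the female 5-month-labelled library.

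Different clusters made up the lactotrope-like class at the 2 labelled ages: 1 cluster of 4639 nuclei held 7 nuclei from the 22-month-labelled libraries, and 4 others with 7935 nuclei held 5 from the 5-month-labelled ones. Marker transcripts of other cell types moved with these results, some up and some down. The 5 pituicyte markers summed to 141 and 265 CPM in lactotrope-like nuclei of the 22-month-labelled male and female libraries, against 7.74 and 16.7 CPM in the 5-month-labelled male and female libraries, and 2 of the 5 were higher in both 22-month-labelled libraries. Col25a1 alone gave 133 and 262 CPM of these sums in the 22-month-labelled male and female libraries, against 5.03 and 12.9 CPM in the 5-month-labelled male and female libraries, while the defining transcription factors Rax and Nkx2-1 were at or below 0.543 CPM in every library. The 5 fibroblast markers summed to 218 and 293 CPM in the 22-month-labelled male and female libraries, against 88.2 and 76.5 CPM in the 5-month-labelled male and female libraries, with 1 of the 5, the collagen gene Col1a2, higher in both. The fibroblast-defining Pdgfra was at or below 0.580 CPM in every library. Growth hormone RNA (Gh) was lower in the 22-month-labelled libraries, as were Cdh2, Cdh12 and Cdh11, at 18075 and 9249 CPM in the male and female ones, against 41088 and 25737 CPM in the 5-month-labelled male and female libraries. The 5 melanotrope markers, none of them at 0 in all 4 libraries, summed to 39.6 and 28.0 CPM in the 22-month-labelled male and female libraries, against 74.3 and 109 CPM in the 5-month-labelled male and female libraries. The 9 stem markers summed to 58.4 and 41.9 CPM in the 22-month-labelled male and female libraries, against 28.0 and 35.1 CPM in the 5-month-labelled male and female libraries, with 4 of the 9 higher in both. In all, 3 of 13 marker lists of other types were higher in sum in both 22-month-labelled libraries, as given here, and 4 were lower: besides the melanotrope list these were the somatotrope, macrophage and lymphocyte lists, whose sums were at most 19.1 CPM in any library. The part of these transcripts in the calls was not tested.

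Gonadotropes make the gonadotropins LH and FSH. In gonadotrope-like nuclei Cdh11 was at 389 and 433 CPM in the 22-month-labelled male and female libraries, against 13.1 and 7.25 CPM in the 5-month-labelled male and female libraries. It rose by 5.44 ± 0.27 (adjusted p = 1.16e-05, edgeR). Pcdh7 was at 854 and 514 CPM in the 22-month-labelled male and female libraries, against 43.8 and 53.7 CPM in the 5-month-labelled male and female libraries. It rose by 3.88 ± 0.26 (adjusted p = 4.43e-05, edgeR), with adjusted p of at most 0.0478 in the refits. The 22-month-labelled levels of both genes were thus above those of the 5-month-labelled libraries without overlap. Type II cadherins rose in 3 of 6 tests here, Cdh11, Cdh18 and Cdh10, beside 5.20% of all genes higher and 2.69% lower. Cdh18 was at 200 and 410 CPM in the 22-month-labelled male and female libraries, against 81.8 and 84.8 CPM in the 5-month-labelled male and female libraries (fold 1.91 ± 0.25, edgeR adjusted p = 0.00208), and it did not pass without either 5-month-labelled library (adjusted p = 0.265 without the males and 0.275 without the females). Cdh10 (1.94 ± 0.45) and the clustered Pcdhga12 (1.40 ± 0.32) and Pcdhga1 (2.04 ± 0.46) rose on counts of 3 to 53 per library, and without the 5-month-labelled males their adjusted p was 0.189, 0.409 and 0.439. Pcdh9 and Cdh2, of the 3 members with most counts in this class, did not pass (adjusted p = 0.199 and 0.238).

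The gonadotrope-like class was also formed by 2 clusters, 1 of 569 nuclei with 12 from the 22-month-labelled libraries and 1 of 461 with 3 from the 5-month-labelled ones. Transcripts of lactotropes and of other cell types were higher in these nuclei in the same libraries. Prl was at 33803 and 14134 CPM in gonadotrope-like nuclei of the 22-month-labelled male and female libraries, against 6377 and 2999 CPM in the 5-month-labelled male and female libraries. The 5 lactotrope markers other than Prl, none of them at 0 in all 4 libraries, summed to 326 and 309 CPM in the 22-month-labelled male and female libraries against 35.1 and 39.9 CPM in 5-month males and females, and 4 of the 5 were higher in both 22-month-labelled libraries. For Cdh11 and Pcdh7 the lactotrope-like levels of the 22-month-labelled male and female libraries were lower than the gonadotrope-like ones, at 14.0 and 32.9 CPM and at 34.3 and 114 CPM. For Cdh18 they were higher, at 671 and 560 CPM, and the part of lactotrope RNA in that rise was not tested. The 5 fibroblast markers summed to 46.8 and 37.1 CPM in gonadotrope-like nuclei of the 22-month-labelled male and female libraries, against 10.2 and 12.3 CPM in the 5-month-labelled male and female libraries, 2 of the 5 being higher in both, with Pdgfra at or below 0.725 CPM in every library. Cdh11 in fibroblast and mural-like nuclei was at 354 and 377 CPM in the 22-month-labelled male and female libraries, against 436 and 295 CPM in the 5-month-labelled male and female libraries. Its gonadotrope-like level in the 22-month-labelled libraries, 389 and 433 CPM, was thus above the fibroblast and mural-like level of the same libraries. The 5 pituicyte markers summed to 77.1 and 89.8 CPM in gonadotrope-like nuclei of the 22-month-labelled male and female libraries, against 10.96 and 11.6 CPM in the 5-month-labelled male and female libraries. Of these sums Col25a1 gave 75.2 and 87.2 CPM in the 22-month-labelled male and female libraries, against 8.03 and 10.9 CPM in the 5-month-labelled male and female libraries, and Nkx2-1 was at 0 in all 4 libraries. Corticotrope markers were also higher in sum in gonadotrope-like nuclei, at 50.6 and 16.9 CPM in the 22-month-labelled male and female libraries, against 5.11 and 6.53 CPM in the 5-month-labelled male and female libraries. Thyrotrope markers were lower, at 129 and 148 CPM in the 22-month-labelled male and female libraries, against 194 and 296 CPM in the 5-month-labelled male and female libraries, as were the macrophage and mural sums, at most 25.6 CPM in any library. The part of these transcripts in the rises of Cdh11 and Pcdh7 was not tested.

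Stem-like nuclei had 7 members called, 4 of them delta protocadherins. Pcdh17 was at 236 and 308 CPM in the 22-month-labelled male and female libraries, against 552 and 689 CPM in the 5-month-labelled male and female libraries, and fell by 1.25 ± 0.18 (adjusted p = 5.92e-09, edgeR). Pcdh19, an X-linked delta protocadherin, fell by 2.10 ± 0.36 in log2 units (adjusted p = 1.42e-06, edgeR), to 7.05 and 13.8 CPM in the 22-month-labelled male and female libraries against 27.9 and 60.8 CPM in the 5-month-labelled male and female libraries. Neither group of libraries overlapped the other for these genes. Cdh26, the class leader, was at 103 and 79.5 CPM in the 22-month-labelled male and female libraries, against 49.5 and 39.5 CPM in the 5-month-labelled male and female libraries, and rose by 0.99 ± 0.25 (adjusted p = 0.00302, edgeR). Pcdh9 and Pcdh7 rose by 0.86 ± 0.18 and 0.58 ± 0.18, and Cdh18 by 1.26 ± 0.37, the last on 5 to 120 counts per library. Cdh11 fell by 1.33 ± 0.39 on 10 to 29 counts per library, with groups that did not overlap at 10.6 and 12.7 CPM in the 22-month-labelled male and female libraries against 36.8 and 15.2 CPM in the 5-month-labelled male and female libraries. All 7 calls were lost without either 5-month-labelled library, where 0 members passed, and 3 and 6 members passed without the 22-month-labelled male and female libraries. The fit here shares its spread almost wholly across genes, and DESeq2 called Pcdh9 higher and Pcdh17 lower, 2 members in all. Cdh1 did not pass (fold 0.07 ± 0.28, adjusted p = 0.947).

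Prl was at 69057 and 24815 CPM in stem-like nuclei of the 22-month-labelled male and female libraries, against 10697 and 4808 CPM in the 5-month-labelled male and female libraries, the order that Pcdh9, Cdh18 and Cdh26 also follow there. Cdh26 was at or below 1.38 CPM in lactotrope-like nuclei of any library. The 5 other lactotrope markers summed to 466 and 526 CPM in the 22-month-labelled male and female libraries against 180 and 377 CPM in the 5-month-labelled male and female libraries, 3 of the 5 being higher in both 22-month-labelled libraries and none at 0 in all 4. Angpt1 gave 339 and 431 CPM of these sums in the 22-month-labelled male and female libraries, against 168 and 351 CPM in the 5-month-labelled ones, so its groups overlapped. Pituicyte markers, of the class that leads in Pcdh9, summed to 288 and 310 CPM in stem-like nuclei in the 22-month-labelled male and female libraries, against 156 and 245 CPM in the 5-month-labelled male and female libraries, with 1 of the 5 higher in both. That marker, Slc1a3, gave 276 and 295 CPM of these sums in the 22-month-labelled male and female libraries, against 149 and 210 CPM in the 5-month-labelled ones. Col25a1 was highest in the 5-month-labelled female library, at 31.9 CPM. Rax, Nkx2-1 and Scn7a were at or below 3.18 CPM in every library. The somatotrope, corticotrope and lymphocyte sums were higher too, at most 24.7 CPM in any library, and the macrophage sum was lower, at most 25.9 CPM. Their part in the calls was not tested. Pcdh17 and Pcdh19, which fell, were at or below 9.51 and 0.269 CPM in lactotrope-like nuclei of any library.

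In somatotrope-like nuclei, the growth hormone cells, Cdh7 was at 205 and 182 CPM in the 22-month-labelled male and female libraries, against 66.4 and 74.2 CPM in the 5-month-labelled male and female libraries. Cdh7 rose by 1.54 ± 0.14 (adjusted p = 0.00228, edgeR), and its adjusted p was at most 0.0360 with each library left out. Pcdh15 rose by 1.79 ± 0.23, to 30.8 and 39.6 CPM in the 22-month-labelled male and female libraries, against 7.13 and 15.6 CPM in the 5-month-labelled male and female libraries (adjusted p = 0.0108, edgeR). Pcdh11x fell by 1.18 ± 0.14 and Cdh20 by 1.67 ± 0.24 on the log2 scale, and Pcdhga12 rose by 0.99 ± 0.19. Of these 4, Cdh20 and Pcdhga12 passed in none of the refits and Pcdh15 and Pcdh11x only without the 5-month-labelled female library. Cdh18, Pcdh9 and Cdh2, the members with most counts, did not pass (adjusted p = 0.313, 0.171 and 0.208). The 22-month-labelled nuclei of this class were mostly 1 cluster (2460 nuclei) and the 5-month-labelled ones 2 others (2665 and 3259), and a further cluster of 1352 nuclei, 1065 of them from the 22-month-labelled female library, was left unnamed. It had 3 somatotrope markers raised, but none of them was among its 10 leading genes, which held Gal and Cpa6, markers of lactotropes and of stem cells. With that cluster added to the class, whose name its leading genes go against, 10 members were called instead of 5. Prl was at 50554 and 18238 CPM in somatotrope-like nuclei of the 22-month-labelled male and female libraries, against 6863 and 3823 CPM in the 5-month-labelled male and female libraries, and 4 of 5 other lactotrope markers were higher in both 22-month-labelled libraries, with sums of 136 and 104 CPM against 35.6 and 48.1 CPM. Lactotrope-like levels of Cdh7 exceeded the somatotrope-like ones in the same libraries, and the part of lactotrope RNA was not tested. Fibroblast markers summed to 116 and 134 CPM in somatotrope-like nuclei in the 22-month-labelled male and female libraries, against 77.9 and 53.6 CPM in the 5-month-labelled male and female libraries, with 1 of the 5 higher in both. Stem, pituicyte, mural and corticotrope sums were higher as well, at most 80.4 CPM in any library, and the macrophage sum was lower, at most 17.8 CPM. Melanotrope markers were lower, at 108 and 136 CPM in the 22-month-labelled male and female libraries, against 151 and 174 CPM in the 5-month-labelled male and female libraries. In melanotrope-like nuclei Pcdh11x, which fell in somatotrope-like ones, was higher at labelled 22 months. It was at 373 and 387 CPM there in the 22-month-labelled male and female libraries, against 214 and 125 CPM in the 5-month-labelled male and female libraries. The part of these transcripts was not tested.

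Melanotrope-like nuclei had 2 calls. R-cadherin (Cdh4), a type I cadherin, was at 98.3 and 58.2 CPM in the 22-month-labelled male and female libraries, against 24.1 and 19.2 CPM in the 5-month-labelled male and female libraries, and rose by 1.85 ± 0.20 (adjusted p = 0.000562, edgeR). The call was lost without the 5-month-labelled male library (adjusted p = 0.0552). Pcdh11x rose by 1.23 ± 0.20, to 373 and 387 CPM in the 22-month-labelled male and female libraries, against 214 and 125 CPM in the 5-month-labelled male and female libraries, and passed only without the 22-month-labelled male library among the refits. The class leaders Pcdh15 and Cdh10 did not pass (adjusted p = 0.557 and 0.489), nor did Pcdh9 (0.270). Prl was at 40258 and 20608 CPM in melanotrope-like nuclei of the 22-month-labelled male and female libraries, against 6612 and 3364 CPM in the 5-month-labelled male and female libraries. The 5 other lactotrope markers summed to 672 and 665 CPM in the 22-month-labelled male and female libraries, against 468 and 523 CPM in the 5-month-labelled male and female libraries, with 4 of the 5 higher in both 22-month-labelled libraries and none at 0 in all 4. Drd2 gave 449 and 398 CPM of these sums in the 22-month-labelled male and female libraries, against 351 and 348 CPM in the 5-month-labelled ones. Its level in lactotrope-like nuclei was lower, at most 208 CPM in any library. All 5 pituicyte markers were higher in both 22-month-labelled libraries, with sums of 133 and 138 CPM in the male and female ones, against 70.5 and 77.7 CPM in the 5-month-labelled male and female libraries. For the defining factors Rax and Nkx2-1 this rested on at most 2 counts in a library, at or below 0.977 CPM. Lactotrope-like Pcdh11x, at 418 and 392 CPM in the 22-month-labelled male and female libraries, was no lower than the melanotrope-like level, while Cdh4 was at or below 5.76 CPM in lactotrope-like nuclei and at or below 27.6 CPM in pituicyte-like nuclei of any library. Fibroblast markers summed to 41.5 and 36.2 CPM in the 22-month-labelled male and female libraries, against 16.5 and 12.9 CPM in the 5-month-labelled male and female libraries, with 3 of the 5 higher in both and Pdgfra at or below 0.833 CPM in every library. The thyrotrope sum was higher too, at most 26.9 CPM in any library, while the mural and macrophage sums, at most 20.7 CPM, and the corticotrope sum, at most 199.8 CPM, were lower. The part of these transcripts in the 2 rises was not tested.

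Corticotrope-like nuclei had 3 calls, all higher: Pcdh7 (1.56 ± 0.25), Cdh18 (0.92 ± 0.22) and Pcdh15 (0.72 ± 0.22, edgeR adjusted p = 0.0495). Pcdh7 was at 94.3 and 339 CPM in the 22-month-labelled male and female libraries, against 46.0 and 88.5 CPM in the 5-month-labelled male and female libraries. All 3 passed only without the 22-month-labelled male library, 0 members passed without any other library, and DESeq2 called 0 members. The edgeR fit of this class shares its spread wholly across genes. The library labelled 22-month females gave 74 of these nuclei. At an unadjusted p under 0.05, edgeR had 7 of the 14 and 12.8% of all genes. Prl was at 50852 and 19959 CPM in these nuclei in the 22-month-labelled male and female libraries, against 7919 and 3744 CPM in the 5-month-labelled male and female libraries, and the 5 other lactotrope markers summed to 173 and 125 CPM against 25.2 and 24.1 CPM, each higher in both 22-month-labelled libraries. Stem markers, of the class with the highest average Pcdh7, summed to 114 and 140 CPM in corticotrope-like nuclei in the 22-month-labelled male and female libraries, against 76.7 and 90.1 CPM in the 5-month-labelled male and female libraries, with 4 of the 9 higher in both. Pcdh7 in stem-like nuclei was at 1307 and 1848 CPM in the 22-month-labelled male and female libraries, against 1008 and 995 CPM in the 5-month-labelled male and female libraries. Fibroblast markers summed to 59.0 and 45.3 CPM in corticotrope-like nuclei in the 22-month-labelled male and female libraries, against 19.7 and 9.65 CPM in the 5-month-labelled male and female libraries, with 2 of the 5 higher in both. The pituicyte, somatotrope and lymphocyte sums were higher as well, at most 97.1 CPM in any library, and the cycling sum was lower, at most 4.83 CPM. The part of these transcripts was not tested. The class leader Cdh8 did not pass (fold 0.23 ± 0.20, adjusted p = 0.709), nor did Pcdh9 (0.101) or Cdh2 (0.545).

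Several members were called in opposite directions in different classes, and the difference of the labelled-age fold between 2 classes was tested with each library as a block. This test was added after the values had been seen. Cdh20, a type II cadherin, was at 9.95 and 39.97 CPM in lactotrope-like nuclei of the 22-month-labelled male and female libraries, against 2.17 and 6.60 CPM in the 5-month-labelled male and female libraries. In somatotrope-like nuclei it was at 3.92 and 13.5 CPM in the 22-month-labelled male and female libraries, against 17.1 and 36.7 CPM in the 5-month-labelled male and female libraries. Its lactotrope-like call passed only without the 22-month-labelled males (edgeR adjusted p of 0.114 to 0.257 in the other refits) and its somatotrope-like call in none. The lactotrope-like fold exceeded the somatotrope-like fold by 4.21 ± 0.24 (adjusted p = 0.000113, edgeR), where 6.43% of all genes passed this test. Pcdh11x, an X-linked delta protocadherin, rose in lactotrope-like nuclei, to 418 and 392 CPM in the 22-month-labelled male and female libraries against 211 and 184 CPM in the 5-month-labelled male and female libraries. It fell in somatotrope-like nuclei, to 32.7 and 27.6 CPM in the 22-month-labelled male and female libraries against 75.9 and 68.4 CPM in the 5-month-labelled male and female libraries. The difference of folds was 2.40 ± 0.13 (adjusted p = 8.11e-05, edgeR) between lactotrope- and somatotrope-like nuclei, and 2.44 ± 0.22 (adjusted p = 0.00134) between melanotrope- and somatotrope-like nuclei, where 0.445% of all genes passed. Pcdh11x lies on the X chromosome and the 2 labelled ages also differ in Xist, so labelled age and X dosage cannot be told apart for it.

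Cdh11 was called lower in lactotrope-like nuclei, at 14.0 and 32.9 CPM in the 22-month-labelled male and female libraries against 69.5 and 217 CPM in the 5-month-labelled male and female libraries (fold -2.34 ± 0.14). This call passed only without the 5-month-labelled males, with edgeR adjusted p of 0.0640 to 0.168 in the other refits. The gonadotrope-like fold exceeded this by 7.84 ± 0.63 (adjusted p = 0.00127, edgeR; 3.14% of all genes passed) and exceeded the stem-like fold by 6.59 ± 0.42 (adjusted p = 1.89e-06; 1.71%). Pcdh17 rose in lactotrope-like nuclei, from low counts, to 9.51 and 4.47 CPM in the 22-month-labelled male and female libraries against 0.951 and 1.98 CPM in the 5-month-labelled male and female libraries, and fell in stem-like nuclei. Its folds differed by 3.62 ± 0.43 (adjusted p = 5.47e-05, edgeR; 4.70% of all genes). All 6 differences kept their direction in all 7 alternatives of this test. They were picked because the calls had opposite signs in these same libraries, so passing was likely beforehand. The alternatives reuse the same counts and are no independent support.

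**Figure D4:**
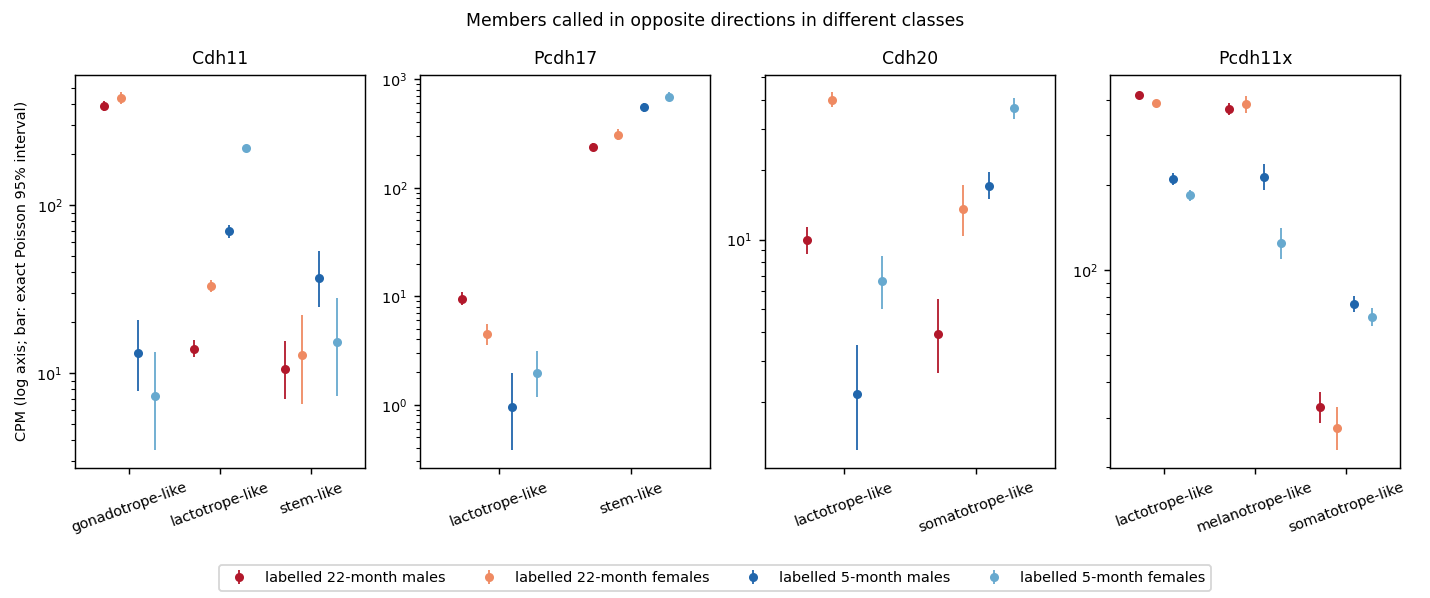
CPM (log axis, bars exact Poisson 95% intervals, which cover counting error only) of the 4 members called in opposite directions by labelled age, by class and library. For Cdh11 the 22-month-labelled points lie above the 5-month-labelled ones in gonadotrope-like nuclei (389 and 433 against 13.1 and 7.25 CPM) and below them in lactotrope-like nuclei.

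The clustered protocadherins, on chromosome 18, had low counts, and 36 members overlap another member on the same strand in GENCODE M21, 13 of them alpha, 2 beta and 21 gamma genes. A read in the shared last exons of the alpha or gamma array cannot be given to 1 gene, so these counts are uncertain between genes of the array. The 2 overlapping beta genes, Pcdhb21 and Pcdhb22, overlap only at the end of 1 and the start of the other, and the other beta genes overlap no member. Summed over its 21 genes, the gamma array was at 140 and 195 CPM in lactotrope-like nuclei of the 22-month-labelled male and female libraries, against 111 and 128 CPM in the 5-month-labelled male and female libraries. The beta array of 22 genes was at 119 and 143 CPM in the 22-month-labelled male and female libraries, against 154 and 194 CPM in the 5-month-labelled male and female libraries. In lactotrope-like nuclei 7 of 21 gamma genes rose and 0 fell (median fold 0.68), 1 of 22 beta genes fell (median -0.31) and 0 of 11 alpha genes passed (median -0.06), against 12.8% of all genes higher, 12.0% lower and a median of -0.02. Pcdhga12, the most counted of them, was at 21.5 and 38.9 CPM in the 22-month-labelled male and female libraries, against 14.1 and 18.1 CPM in the 5-month-labelled male and female libraries (fold 1.06 ± 0.18, edgeR adjusted p = 0.00196). Pcdhga12 passed only without the 22-month-labelled male library among the refits, and the 8 calls of clustered genes passed in at most 1 refit each. DESeq2 called Pcdhga12 alone of these 8 (adjusted p = 0.00772), with 0.137 to 0.318 for the other 7. Pcdhga12 was also called higher in somatotrope- and gonadotrope-like nuclei by edgeR, but not by DESeq2 (adjusted p = 0.146 and 0.426). Of the gamma genes tested, 16 of 20 in somatotrope-like, 8 of 10 in gonadotrope-like and 8 of 8 in melanotrope-like nuclei had a fold above 0, and of the beta genes 5 of 15, 2 of 7 and 3 of 9. The median fold of all genes was -0.03, -0.02 and -0.02 in these classes. Only 1, 2 and 0 of these gamma genes were called, and 0 of the beta genes. Genes of an array are neighbours, and those of the gamma array possibly share reads, so they are not independent of each other, and no test of the array was made. Alpha sums were highest on average in melanotrope-like (40.3 ± 2.17 CPM) and lactotrope-like nuclei (39.8 ± 3.98 CPM), which overlapped. The lowest averages were 2.46 ± 3.35 CPM in endothelial-like and 3.86 ± 6.42 CPM in fibroblast and mural-like nuclei. In the 22-month-labelled male and female, then 5-month-labelled male and female libraries, they rest on 2, 1, 0 and 0 and on 1, 6, 0 and 0 counts. Their order is thus uncertain.

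**Figure D5:**
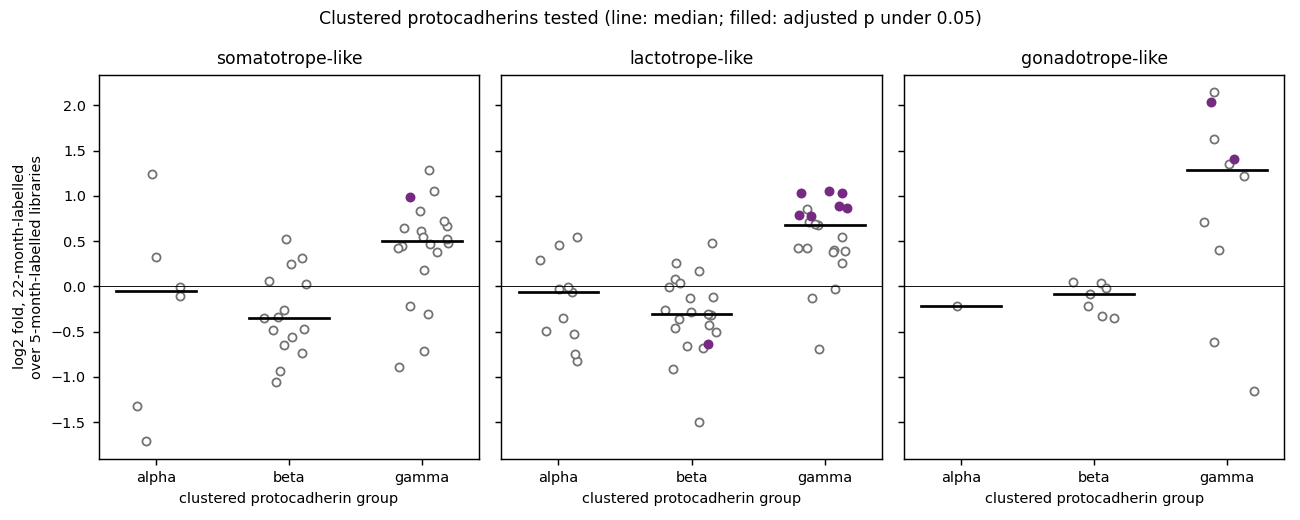
Log2 fold (22-month-labelled over 5-month-labelled libraries) of every clustered protocadherin tested in 3 classes, by array; lines are medians and filled points passed an adjusted p of 0.05. In lactotrope-like nuclei the medians are -0.06 (alpha), -0.31 (beta) and 0.68 (gamma).

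Labelled sex, males over females with labelled age as a term, gave 7 calls. In lactotrope-like nuclei Pcdh10 rose and Cdh20, Cdh13 and Cdh11 fell, 4 of 75 tested against 1.17% of all genes (0.176% higher and 0.998% lower). Pcdh10, a delta protocadherin, was at 53.6 CPM in the 22-month-labelled male library and 10.1 in the 22-month-labelled female library, and at 33.6 CPM in the 5-month-labelled male library and 16.3 in the 5-month-labelled female library (fold 1.75 ± 0.27, edgeR adjusted p = 0.0160). Different clusters also held the lactotrope-like nuclei of the 22-month-labelled libraries by labelled sex: 2 clusters had 2469 and 1627 nuclei from the male against 207 and 107 from the female library, and 2 others had 396 and 113 from the male against 1003 and 2008 from the female library. Pcdh10 was among the 10 leading genes of the first of these clusters. The counting ratios, males over females, were 5.29 (95% interval 4.53 to 6.20) at labelled 22 months and 2.06 (1.67 to 2.54) at labelled 5 months. Cdh11 fell by 1.46 ± 0.14, with ratios of 0.425 (0.370 to 0.488) and 0.321 (0.290 to 0.353), and Cdh20 by 1.90 ± 0.22, with ratios of 0.249 (0.213 to 0.290) and 0.329 (0.177 to 0.579). The ratios of both genes lay below 1 at both labelled ages. Refits with 1 library left out had labelled sex as the only term, so labelled age was not separated from it there. Their folds were 0.16 for Cdh11 without the 5-month-labelled female library and 0.057 for Cdh20 without the 22-month-labelled female library. In gonadotrope-like nuclei Cdh12 rose by 1.02 ± 0.18 (1 of 32, all genes 0.822%, with 0.218% higher and 0.604% lower), at 165 CPM in the 22-month-labelled male library and 86.6 in 22-month females, and 156 CPM in 5-month males and 66.7 in 5-month females. In stem-like nuclei Pcdh9 rose by 0.71 ± 0.18 (1 of 19, all genes 1.26%, with 0.554% higher and 0.703% lower), and in corticotrope-like nuclei Pcdh7 fell by 1.53 ± 0.25 (1 of 14, all genes 1.32%, with 0.272% higher and 1.05% lower). Somatotrope-like and melanotrope-like nuclei had 0 calls of 58 and 37 members by edgeR (all genes: 0.0725%, with 0.0198% higher and 0.0527% lower, and 0.783%, with 0.136% higher and 0.647% lower) and 0 by DESeq2, with 13 and 9 members at an unadjusted p under 0.05, as were 9.46% and 11.5% of all genes. Because the refits with 1 library left out had no term for labelled age, they cannot show whether the 7 calls hold. Given the mismatch of the sex labels with Xist and Y-linked RNA, none of these can be read as a difference between the sexes.

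The genes that work with cadherins were described as 4 lists, with the same test by labelled age. Of their 49 calls, 2 passed with each library left out in turn and 20 passed in no such refit. Of 20 catenins and junction partners, 6 rose and 5 fell in lactotrope-like nuclei, where 12.8% of all genes were higher and 12.0% lower. In gonadotrope-like nuclei 7 rose and 0 fell of 19 tested (all genes: 5.20% higher and 2.69% lower), in stem-like nuclei 4 rose and 0 fell of 20 (3.19% and 2.91%), and 0 passed in the other 3 classes. None of these 22 calls passed in all 4 refits and 9 passed in none. Ctnna2, the neuronal alpha-catenin, rose in stem-like nuclei, to 129 and 97.6 CPM in the 22-month-labelled male and female libraries, against 24.1 and 24.3 CPM in the 5-month-labelled male and female libraries (fold 2.18 ± 0.27). This call was lost without the 5-month-labelled male library (edgeR adjusted p = 0.108). Its fold of 0.80 ± 0.15 in lactotrope-like nuclei passed in none of the refits (edgeR adjusted p of 0.0738 to 0.264), and its fold of 1.05 ± 0.21 in gonadotrope-like nuclei passed only without the 22-month-labelled male library, with 0.0617 to 0.519 in the others. Nectin3, an immunoglobulin-type adhesion protein that pairs with cadherin junctions, fell by 2.17 ± 0.35 in lactotrope-like nuclei, passing only without the 22-month-labelled male library (0.0667 to 0.107 in the others). It rose by 1.75 ± 0.30 in gonadotrope-like nuclei, passing only without the 22-month-labelled female library (0.0784 to 0.446 in the others), and the difference between these classes was not tested. Catenins beta (Ctnnb1) and alpha-E (Ctnna1) were called higher in lactotrope-like nuclei, by 0.41 ± 0.13 and 0.44 ± 0.13, but neither call passed with any library left out (edgeR adjusted p of 0.184 to 0.256 and 0.0808 to 0.360). Of the other called genes of this list in lactotrope-like nuclei, the scaffold Magi2 (0.72 ± 0.17), the actin-binding vinculin gene Vcl (0.54 ± 0.12) and Nectin1 (1.02 ± 0.31) were higher. Nectin2 (-1.48 ± 0.25), the p120-catenin relative Arvcf (-0.58 ± 0.17), the desmosomal plakophilin Pkp2 (-0.56 ± 0.14) and Ctnnal1 (-0.47 ± 0.15) were lower there. Nectin1 and Nectin2 passed only without the 22-month-labelled males (edgeR adjusted p of 0.287 to 0.553 and 0.0581 to 0.114 in the others), and Magi2, Vcl, Arvcf, Pkp2 and Ctnnal1 in no refit, at 0.0671 to 0.469. In gonadotrope-like nuclei Ctnnal1 (1.51 ± 0.21) and Pkp4 (1.28 ± 0.20) rose and were lost without either 5-month-labelled library (0.257 to 0.359). The delta-catenin Ctnnd2 (0.86 ± 0.22), the tight junction scaffold Tjp1 (0.77 ± 0.17) and Magi1 (0.67 ± 0.17) rose there too and passed only without the 22-month-labelled males (0.110 to 0.888 in the others). In stem-like nuclei Ctnnd2 (1.38 ± 0.20) and Magi2 (0.83 ± 0.18) rose and were lost without either 5-month-labelled library (0.0908 to 0.478), and Ctnna3 (1.81 ± 0.60) passed in no refit (0.350 to 0.598).

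The medians of this list, 0.26, 0.24, 0.20, 0.17, 0.06 and 0.15 in stem-, somatotrope-, lactotrope-, gonadotrope-, melanotrope- and corticotrope-like nuclei, lay above those of all genes (-0.03 to -0.01).

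Of 21 other genes of the cadherin superfamily, 8 to 11 could be tested in each class. Fat3, a giant atypical cadherin, was at 30.2 and 62.7 CPM in lactotrope-like nuclei of the 22-month-labelled male and female libraries, against 1.90 and 4.62 CPM in the 5-month-labelled male and female libraries. It rose by 4.03 ± 0.19 there (adjusted p = 4.57e-07, edgeR) and passed with each library left out. Fat3 was also called higher in gonadotrope-like nuclei, by 4.45 ± 0.42, a call lost without the 5-month-labelled males or females (edgeR adjusted p = 0.0811 and 0.0777). In melanotrope-like nuclei its rise of 1.84 ± 0.22 was lost without the 22-month-labelled females (0.129) or the 5-month-labelled males (0.160), and in stem-like nuclei its rise of 0.56 ± 0.18 passed only without the 22-month-labelled males (0.526 to 0.666 in the others). Cdhr3, a cadherin-related protein of ciliated cells, fell by 2.78 ± 0.23 in lactotrope-like nuclei and passed in all 4 refits. Clstn2, a synaptic calsyntenin, fell by 0.70 ± 0.19 in stem-like nuclei, passing only without the 22-month-labelled females (0.456 to 0.704 in the others). It rose by 1.39 ± 0.20 in melanotrope-like nuclei, lost without the 22-month-labelled females (0.225) or the 5-month-labelled males (0.362), and by 1.96 ± 0.46 in corticotrope-like nuclei, lost without the 22-month-labelled females (0.890) or the 5-month-labelled females (0.871).

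Of 12 epithelial and mesenchymal genes, 5 rose and 1 fell of 9 in lactotrope-like nuclei (all genes: 12.8% higher and 12.0% lower). The 5 that rose were Snai2, Zeb1 and Zeb2, transcription factors known from mesenchymal cells, and Grhl2 and Esrp1, a transcription factor and a splicing regulator known from epithelia. Grhl2 was called higher by 4.90 ± 0.65, at 0.803 and 19.4 CPM in the 22-month-labelled male and female libraries, against 0.272 and 0.440 CPM in the 5-month-labelled male and female libraries, so its level was high in the 22-month-labelled female library alone. Without the 5-month-labelled males or females its adjusted p was 0.283 and 0.272, and without the 22-month-labelled females it had too few counts to be tested. Esrp1 rose by 0.46 ± 0.12, Zeb1 by 0.48 ± 0.13 and Zeb2 by 0.61 ± 0.13, and none of these 3 passed with any library left out (edgeR adjusted p of 0.0970 to 0.285, 0.120 to 0.384 and 0.0843 to 0.375). Snai2, a transcription factor known from epithelial-mesenchymal transition, rose by 3.74 ± 0.51, passing only without the 22-month-labelled males (0.0901 to 0.112 in the others). Epcam, an epithelial adhesion protein, fell by 0.40 ± 0.13, a call that passed in none of the refits (edgeR adjusted p of 0.0834 to 0.669). Epcam also fell by 0.80 ± 0.17 in gonadotrope-like nuclei, passing only without the 22-month-labelled males (0.362 to 0.557 in the others), and Zeb1 rose by 0.68 ± 0.13 in somatotrope-like nuclei, passing in no refit (0.134 to 0.475). In stem-like nuclei Krt18, an epithelial keratin, fell by 1.40 ± 0.23 and was lost without the 5-month-labelled males (0.439), and Zeb1 rose by 1.06 ± 0.31, passing only without the 22-month-labelled males (0.511 to 0.628 in the others). Of 11 regulators of clustered protocadherins and of cadherin signalling, 5 rose and 1 fell in lactotrope-like nuclei, beside the same shares of all genes. Among them were the cohesin subunit Rad21 (0.43 ± 0.13) and Smchd1 (0.37 ± 0.12), an epigenetic silencer of the clustered genes, and neither passed with any library left out (edgeR adjusted p of 0.0938 to 0.313 and 0.114 to 0.343). The WAVE complex genes Abi1 (0.43 ± 0.12) and Nckap1 (0.40 ± 0.12) rose, and neither passed with any library left out (0.0773 to 0.339). Rad21 also rose in gonadotrope-like nuclei, by 1.08 ± 0.26, passing only without the 22-month-labelled females (0.0634 to 0.374 in the others). Cyfip2, a subunit of the WAVE complex that binds protocadherin tails, rose by 1.23 ± 0.13 in lactotrope-like nuclei and was lost without the 5-month-labelled males or females (0.0590 and 0.0558). Its rise of 0.73 ± 0.12 in somatotrope-like nuclei passed in none of the refits (0.118 to 0.326), and that of 0.87 ± 0.27 in stem-like nuclei only without the 22-month-labelled females (0.177 to 0.621 in the others).

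By labelled sex, males over females, the lists gave 5 calls. They were Magi1 (-0.78 ± 0.14), Fat3 (-1.11 ± 0.17) and Grhl2 (-4.26 ± 0.57) in lactotrope-like, Magi1 (-0.99 ± 0.17) in gonadotrope-like and Epcam (0.82 ± 0.23) in corticotrope-like nuclei. Refits with a library left out had no term for labelled age, so they cannot show whether these calls hold.

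For the 3 members with most UMIs, the genes with the most similar levels over the 44 class and library sums were listed by Pearson's r of log2(CPM + 1), as a description, since the sums of a library share its depth and free RNA. Pcdh9 was nearest to Gm12160 (0.873), Trpm3 (0.801) and Ring1 (0.798). Cdh18 was nearest to Sybu (0.867), Kcnh8 (0.845) and Fmn2 (0.841), and Cdh12 to Mindy4b-ps (0.855), Tmem132b (0.841) and Sgcz (0.837).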

How the data were processed

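Nuclei of mouse pituitary glands were sequenced with 10x Genomics 3′ chemistry in 4 libraries, 1 per labelled age and sex. The authors deposited 1 matrix of raw UMI counts per library, made with Cell Ranger 7.0.1 per the file headers, on mm10 per the submitters' processing notes. No source used here states whether intronic reads were included. Nuclei with under 500 genes or over 5% mitochondrial UMIs, and doublets called with Scrublet (10.5 to 14.2% of the remaining barcodes), were removed. Clustering used scanpy 1.11.5 (3000 variable genes without the members, 30 components, Leiden resolution 1). The form of the naming rule and the doublet threshold, the median of the automatic ones, were settled after clusters had been seen. Counts were summed per class and library and tested with edgeR 4.0.16 (TMM scaling, filterByExpr, quasi-likelihood test, labelled age and sex as terms, 1 residual degree of freedom, Benjamini-Hochberg adjustment over all genes). The approximate standard error is the fold divided by the square root of F. Alternatives used DESeq2 1.42.0, other scaling, no filter, other clusterings, 1 term alone and each library left out. A leave-out fit has the tested term alone and takes the lone library of an age to vary like the others. The fit was tested on simulated counts with the same spread for every gene, which is simpler than the data. By labelled age it recovered 39 (gonadotrope-like) to 79 (lactotrope-like) of 100 2-fold changes, and 97 or 98 of 100 4-fold changes. By labelled sex it recovered 36 (corticotrope-like) to 79 (lactotrope-like) of 100 2-fold changes. Intervals on counts are exact Poisson at 95% and cover counting error only. Named genes are the members that led a class, the called members (up to the 10 largest folds per class, comparison and direction), the 3 members with most counts per class and the called genes of the lists, 1 of which is not reported here. Cdh7 in lactotrope-like nuclei and the non-called Cdh1 and Cdh3 in stem-like nuclei were named outside this rule, after their values were seen. Members and lists were chosen with earlier results of these data known.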

Additional observations from a re-analysis of the deposited data

Results flagged for a closer look

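Each of the following labelled-age folds, 22-month-labelled over 5-month-labelled libraries, differed between 2 classes by a test of the difference itself, on the log2 scale and with the library as a block. For Cdh11 the gonadotrope-like fold exceeded the lactotrope-like fold by 7.84 ± 0.63 (edgeR adjusted p = 0.00127, 6.33 to 9.10 under the alternatives) and the stem-like fold by 6.59 ± 0.42 (adjusted p = 1.89e-06, 4.26 to 6.74). For Cdh20 the lactotrope-like fold exceeded the somatotrope-like fold by 4.21 ± 0.24 (edgeR adjusted p = 0.000113). For Pcdh17 the lactotrope-like fold exceeded the stem-like fold by 3.62 ± 0.43 (edgeR adjusted p = 5.47e-05). For Pcdh11x the lactotrope-like fold exceeded the somatotrope-like fold by 2.40 ± 0.13 (edgeR adjusted p = 8.11e-05), and the melanotrope-like fold did so by 2.44 ± 0.22 (adjusted p = 0.00134). The 6 differences were picked because the calls had opposite signs, and the classes share the same 4 libraries.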

How the results depend on the processing

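The 13 leading members numbered 12 with at least 100 counts required, 13 under the other alternatives with all 4 libraries and 14 to 16 with 1 library left out. With doublets kept no macrophage-like class was formed, so the lead of Cdh23 could not be examined and Cdh9 led in melanotrope-like nuclei in its place in the count. DESeq2 called 2 members by labelled age in stem-like, 13 in lactotrope-like, 3 in gonadotrope-like and 0 in corticotrope-like nuclei, and by labelled sex 0 in stem-, gonadotrope- and corticotrope-like nuclei. With labelled age as the only term there were 2, 2, 8, 3, 0 and 0 calls in stem-, somatotrope-, lactotrope-, gonadotrope-, melanotrope- and corticotrope-like nuclei, and with labelled sex alone 0 in stem-, lactotrope-, gonadotrope- and corticotrope-like nuclei. With no filter on low counts, labelled age gave 12 calls in somatotrope-, 11 in gonadotrope- and 5 in melanotrope-like nuclei, and labelled sex 1, 10, 4 and 3 in somatotrope-, lactotrope-, gonadotrope- and melanotrope-like nuclei. With doublets kept, 4 members were called by labelled age in stem-like nuclei, and by labelled sex 0 in stem-, 2 in lactotrope- and 0 in gonadotrope-like nuclei. At Leiden resolution 2, labelled sex gave 1 call in lactotrope- and 1 in melanotrope-like nuclei, and DESeq2 size factors gave 2 in melanotrope-like nuclei. Adding to the somatotrope-like class the unnamed cluster of 1352 nuclei, whose leading genes go against that name, an alternative added after seeing the data, gave 10 calls by labelled age and 3 by labelled sex. With each library left out, labelled-age calls ranged over 0 to 6 in stem-, 1 to 5 in somatotrope-, 3 to 10 in lactotrope-, 2 to 7 in gonadotrope-, 0 to 4 in melanotrope- and 0 to 4 in corticotrope-like nuclei. Refits of this kind had the tested term alone, so they cannot show whether the calls by labelled age or by labelled sex, or their directions, hold. By labelled sex in lactotrope-like nuclei, the log2 fold of Cdh11 ranged from -2.97 without the 5-month-labelled male library to 0.16 without the 5-month-labelled female library, and that of Cdh20 from -3.61 without the 22-month-labelled male library to 0.057 without the 22-month-labelled female library. Apart from changes that follow from fewer libraries or genes tested, the cause was not tested. The share of all genes called under each alternative is not given. These counts therefore do not show whether members gained or lost calls more than other genes. Single-gene values kept direction and side of the threshold in 981 cases, lost the threshold in 223, gained it in 15 and reversed in 2. No paired analysis was possible because each group is 1 library and the labels carry no replicate numbers. Depth limits many members, 49 of 88 having under 1000 UMIs in all.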

Other observations

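The 4 unnamed clusters entered no class, and their member levels are given with exact Poisson 95% intervals that cover counting error only. A cluster of 1352 nuclei led by Spon1, Arhgap6 and Sez6l, 1065 of them from the 22-month-labelled female library, held Cdh11 at 241 CPM (229 to 253), Cdh12 at 362 CPM (348 to 378) and Pcdh10 in 0 counts. A cluster of 722 nuclei led by Gucy2f, Dio2 and Gm49678, 7 of them from the 5-month-labelled libraries, held Pcdh7 at 499.8 CPM (479 to 521) and Cdh20 at 61.9 CPM (54.9 to 69.6). Another of 178 nuclei, 176 of them from the 22-month-labelled male library, held Pcdh9 at 2187 CPM (2117 to 2259) and Pcdh10, among its 10 leading genes, at 37.8 CPM (29.1 to 48.3). One more, 312 nuclei led by hemoglobin genes, held Cdh18 at 335 CPM (307 to 364). Cluster and library cannot be told apart where 1 library gave nearly all nuclei.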
